A study of Mus musculus with 17 samples.

Results

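Ribosome biogenesis and nucleolar genes were examined as a group of 47 genes in the thymi of mice with and without Tcf1, a transcription factor of the Wnt pathway that T-cell development requires. The group was defined by function, but it was chosen with earlier results of these data known. Each gene was represented by the probe set that carries its symbol alone, taking the one with the highest mean over all arrays where there were several. Of the 47 genes, 46 could be measured in this way, out of 18193 genes with such a probe set. All 46 passed the filter on low signals, which 13759 genes passed and which asks that at least 4 arrays show a signal over their own 40th percentile. The remaining gene, Mrto4, a factor of large subunit assembly, shares its probe set with its pseudogenes and was not used.

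RNA from the thymi of 17 mice was hybridized to Affymetrix mouse arrays, 1 mouse per array. The labels name thymus, and the paper's methods name homogenized thymocytes as the source of the RNA. The control group held 5 Tcf1+/- mice (wt/ΔVII on C57Bl/6), whose single mutant allele lacks exon VII, so the controls also carry the deletion on 1 chromosome. The Tcf1-/- group held 4 mice with the deletion on both chromosomes (ΔVII/ΔVII) and no tumor, and the lymphoma group held 8 Tcf1-/- mice of the same genotype with a thymic lymphoma. No age is given in the labels, and the alleles are those of the germline, so every cell of the mouse carries them. Tcf7, the gene that encodes Tcf1, was not analysed here, so the genotypes rest on the labels alone. All values are log2 signals as deposited after Robust Multichip Average (RMA), where a difference of 1 is a doubling.

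Ribosomes are built in the nucleolus, where RNA polymerase I transcribes the precursor of the ribosomal RNAs. Small nucleolar ribonucleoproteins (snoRNPs) modify this precursor, the small subunit processome folds and cleaves it, and further factors assemble and export the large and the small subunit. The pathway uses much of a growing cell's resources, and many of its genes are known targets of the transcription factor Myc.

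Arrays of controls 1 and 2 and of lymphomas 1 and 2 stood apart from the other 13, with an interquartile range of 2.92 to 3.06 against 3.48 to 3.75. The 3' signal of the housekeeping gene Gapdh was above its 5' signal by 1.12 to 2.63 on these 4 arrays and by -0.13 to 0.96 on the rest, a measure that moves with RNA quality and labelling. The main counts, and single genes whose value or call moved most, are also given without these 4 arrays. Markers of other cell types moved between the groups as well. The mean of 11 thymocyte markers was 12.22 to 12.69 in controls, 10.92 to 11.57 in Tcf1-/- thymi and 10.52 to 12.05 in lymphomas, and that of 11 macrophage and monocyte markers was 6.85 to 8.05, 9.04 to 11.14 and 5.89 to 8.52. The mean of 7 fibroblast markers, of which 6 passed the filter, was 5.11 to 5.38 in controls, 5.96 to 6.81 in Tcf1-/- thymi and 5.34 to 7.59 in lymphomas. The mean signal of Y-linked genes also differed between the groups, as it was 3.33 to 3.69 in 6 lymphomas and 3.58 in control 2, and 6.93 to 8.64 in all other mice. In bulk tissue, fewer cells of a type and less RNA of its markers per cell cannot be told apart. The paper assigns the lymphomas to different stages of T-cell development, and the labels used here name no stage.

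Promoter sequences are shown for members whose start region holds CACGTG, the E-box that Myc and related factors can bind. RefSeq's table for GRCm38.p6 held windows of 250 bases before to 50 bases after the start for 42 of the 47 members, and those of Fbl, Rrp12, Npm1, Bop1 and Rrs1 were not in it. The letters were found in 7 of the 42 (Utp20, Wdr43, Tsr1, Pno1, Imp4, Pes1 and Nop2), which is 16.7%, compared with 11.1% of the 11055 tested genes in the table and 7.15% of all its 32851 windows. CACGTG reads the same on both strands. The sequences below belong to the 3 of these members with the highest and the 2 with the lowest difference between lymphomas and controls, are written on the strand of the gene, and have the motif in capitals. For Utp20 (chr10:88826765-88826794, minus strand), Tsr1 (chr11:74898092-74898121, plus strand) and Pno1 (chr11:17211540-17211569, minus strand) the motif lies in the transcribed part and 30 bases around it are given. For Nop2 (chr6:125131633-125131882, plus strand) and Imp4 (chr1:34439579-34439828, plus strand) the 250 bases before the start are given, in which the motif begins 60 and 121 bases before the start.
Utp20: cccagcggcactaactaCACGTGaggaaaa
Tsr1: tcacttggtgcaCACGTGgactgcagaatg
Nop2: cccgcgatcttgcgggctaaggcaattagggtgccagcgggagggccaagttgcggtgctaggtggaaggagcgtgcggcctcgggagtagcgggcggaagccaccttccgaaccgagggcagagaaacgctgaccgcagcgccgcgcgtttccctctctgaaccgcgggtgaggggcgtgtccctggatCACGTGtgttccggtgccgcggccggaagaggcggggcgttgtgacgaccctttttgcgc
Pno1: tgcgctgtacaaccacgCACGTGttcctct
Imp4: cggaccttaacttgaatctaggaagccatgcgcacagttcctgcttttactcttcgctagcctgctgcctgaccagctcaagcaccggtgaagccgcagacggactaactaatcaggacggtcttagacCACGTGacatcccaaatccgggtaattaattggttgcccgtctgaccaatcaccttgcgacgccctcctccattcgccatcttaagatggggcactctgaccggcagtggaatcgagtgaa
Between lymphomas and controls, the median difference was 0.84 over the 7 members with the motif and 0.81 over 34 measured members without it. Of the members with the motif, 5 of 7 were called higher in lymphomas than in controls, and of those without it 23 of 34. Between Tcf1-/- thymi and controls 3 of 7 and 3 of 34 were called higher, with medians of 0.55 and 0.40, and between lymphomas and Tcf1-/- thymi 0 of 7 and 3 of 34, with medians of 0.30 and 0.46. Of all tested genes 8.50%, 10.1% and 6.34% were called higher in these comparisons in turn, and their shares by motif are not given. Fbl and Rrp12, also called higher in Tcf1-/- thymi than in controls, had no window and enter neither count. A link of the calls to the motif was not tested.

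To ask how the pathway as a whole differed between the groups, the mean log2 signal over the 46 members was taken in each mouse. It was 8.95, 9.04, 9.35, 9.45 and 9.47 in controls 1 to 5, and 9.29, 9.90, 9.75 and 9.85 in Tcf1-/- thymi 1 to 4. In the lymphomas it ran from 9.71 to 10.37 with a median of 10.09. All 8 lymphomas lay above the highest control, 6 of 8 lay above the highest Tcf1-/- thymus, and 3 of 4 Tcf1-/- thymi lay above the highest control. The group means were 9.25 ± 0.24 (SD, n = 5) in controls, 9.70 ± 0.28 (SD, n = 4) in Tcf1-/- thymi and 10.10 ± 0.23 (SD, n = 8) in lymphomas, while the mean over all tested genes was 7.63, 7.74 and 7.70. The difference between lymphomas and controls was 0.85, and it was 1.10 within the 4 arrays that stood apart and 0.68 within the others. Lymphomas exceeded Tcf1-/- thymi by 0.40, and Tcf1-/- thymi exceeded controls by 0.44, or by 0.27 without controls 1 and 2. For 40 of the 46 members the group means were ordered in the same way, lymphoma above Tcf1-/- above control. These comparisons share samples, since each group enters 2 of them.

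**Figure D1:**
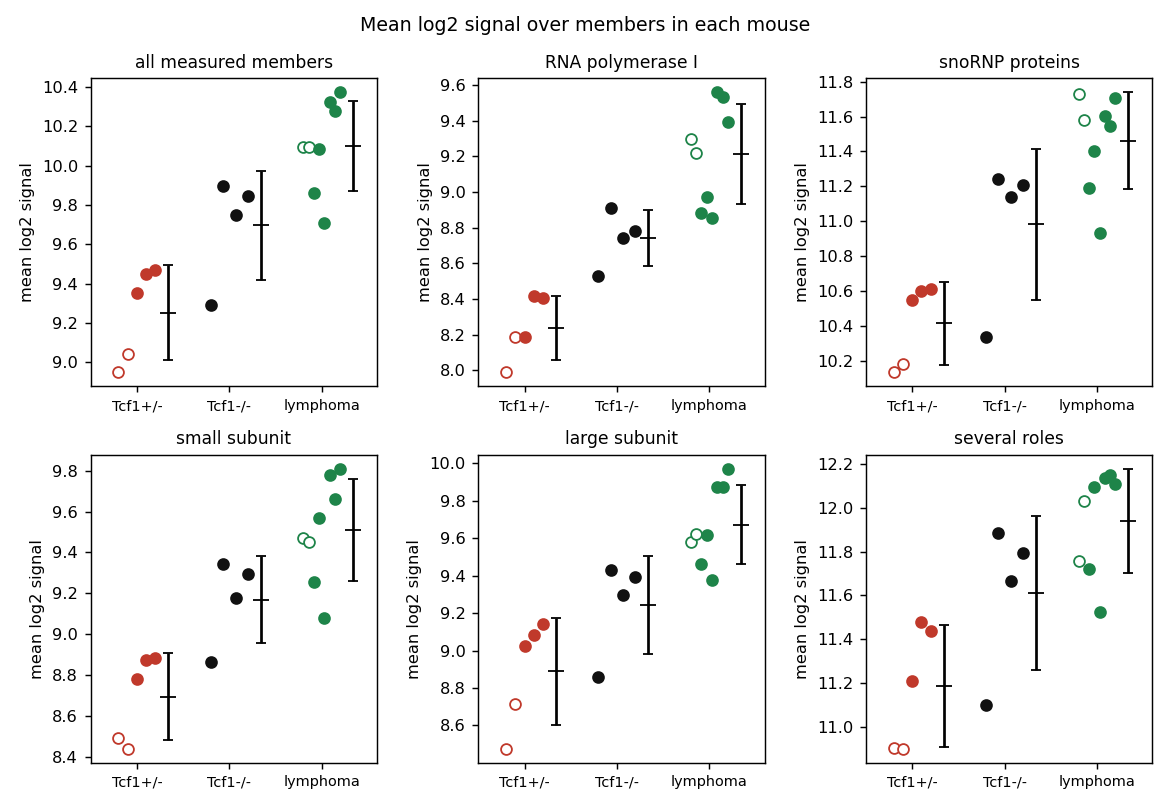
Mean log2 signal (vertical axes) over all measured members and over each of the 5 role classes, with 1 point per mouse, open points for the 4 arrays that stood apart, and bars for the group mean and SD. Over all members the 8 lymphomas sit between 9.71 and 10.37, above all 5 controls, and the lowest Tcf1-/- thymus, at 9.29, lies among the controls.

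Gene by gene, 32 of the 46 members were higher in lymphomas than in controls and 0 were lower (limma, adjusted p under 0.05). Over all tested genes 8.50% were called higher and 4.21% lower. At an unadjusted p under 0.05, 36 members were higher and 0 lower. Of the members, 45 had a positive difference, as did 7827 of all 13759 genes. Their median was 0.82, compared with 0.06 over all tested genes, and the differences ran from -0.09 for Wdr12 to 1.74 for Rrp12. In 22 members every lymphoma lay above every control, which was so for 4.78% of all tested genes. With the mouse number as a block, which pairs lymphomas and controls 1 to 5, 20 of these 32 members were called, against 6.43% of all genes, and the same 10 mice without the block gave 12 members, against 2.99%. Without the 4 arrays that stood apart 20 members were called, 19 of them among the 32, against 5.43% of all genes, and the Mann-Whitney U test that the study names called 24, against 6.09%. In this comparison 7 of 11 thymocyte markers (Thy1, Rag1, Rag2, Cd4, Cd8a, Cd8b1 and Dntt) and 4 of 5 NK cell markers were lower in lymphomas. The 6 fibroblast markers that passed the filter all had positive differences, with a median of 1.28 and 1 called higher. The part of these cells in the result was not tested. When Y-linked signal entered the fit as a covariate, 26 members were called, 24 of them among the 32. The median difference was then 0.99 over the members and 0.08 over all tested genes. The share of all genes called is not given for this setting.

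Between lymphomas and Tcf1-/- thymi, 4 members (Ddx18, Gar1, Polr1c and Rrs1) were higher in the lymphomas and 0 were lower, or 8.70% of members, where 6.34% of all tested genes were called higher and 8.34% lower. The share of members called was thus near that of all genes, whereas the median difference was 0.46 for members and 0.10 for all genes, and 42 of 46 members had a positive difference, as did 8259 of all genes. At an unadjusted p under 0.05, 19 members were higher and 0 lower. All lymphomas lay above all Tcf1-/- thymi for Ddx18 and Gar1, and 4.41% of all genes did the same. The count of 4 was small and moved with single mice. It was 0 without Tcf1-/- thymus 1 or 2, 1 without Tcf1-/- thymus 3, 2 without lymphoma 1, 6 or 8, and 8 without lymphoma 5. The Mann-Whitney U test called 2, against 4.21% of all genes. Without the 4 arrays that stood apart the count was 5, and it was 0 when Y-linked signal entered the fit as a covariate. For these settings, and with single mice left out, the share of all genes called is not given. Cell cycle genes had a median of 0.44 in this comparison, with 17 of 18 differences positive and 0 called. Their mean per mouse was 9.46 in Tcf1-/- thymus 1 and 11.25, 11.17 and 11.27 in Tcf1-/- thymi 2, 3 and 4. The lymphomas ran from 10.93 to 11.74, so only Tcf1-/- thymus 1 lay outside their range. Macrophage and monocyte markers were lower in the lymphomas for 10 of 11 genes, B cell markers for 7 of 8 and NK cell markers for 5 of 5, and their part in the result was not tested.

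Between Tcf1-/- thymi and controls, 8 members (Fbl, Heatr1, Nop14, Polr1a, Rrp12, Tsr1, Utp20 and Wdr43) were higher in Tcf1-/- thymi and 0 were lower, or 17.4% of members, where 10.1% of all tested genes were called higher and 4.70% lower. All 8 were also higher in lymphomas than in controls. A positive difference was found for 44 members and for 6656 of all genes. The median difference was 0.41, compared with -0.01 over all genes, with a range from -0.82 for Wdr12 to 1.24 for Nop58. In 10 members every Tcf1-/- thymus lay above every control, which is 21.7% of members against 11.2% of all genes. Without Tcf1-/- thymus 1 the count of 8 rose to 15, and without Tcf1-/- thymus 2 it was 3. Without controls 1 and 2, whose arrays stood apart, it was 11. The share of all genes called is not given for these counts with mice left out. The Mann-Whitney U test called 0 members and 0.00% of all genes in this comparison. With 4 and 5 mice, even a gene whose groups do not overlap, such as Polr1a, reached an adjusted p of only 0.0944 in it. This 0 therefore does not bear on the 8 calls. Markers of other cells were higher in the same thymi, with 11 of 11 macrophage and monocyte markers, 6 of 8 B cell markers, 4 of 5 NK cell markers 5 of 6 dendritic cell markers and 3 of 6 fibroblast markers called, while 9 of 11 thymocyte markers were lower. Thymus 1 of this group had the highest macrophage mean (11.14), the highest B cell mean (11.21) and the lowest cell cycle mean (9.46), and also the lowest mean over the members. The part of these cells in the result was not tested.

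**Figure D2:**
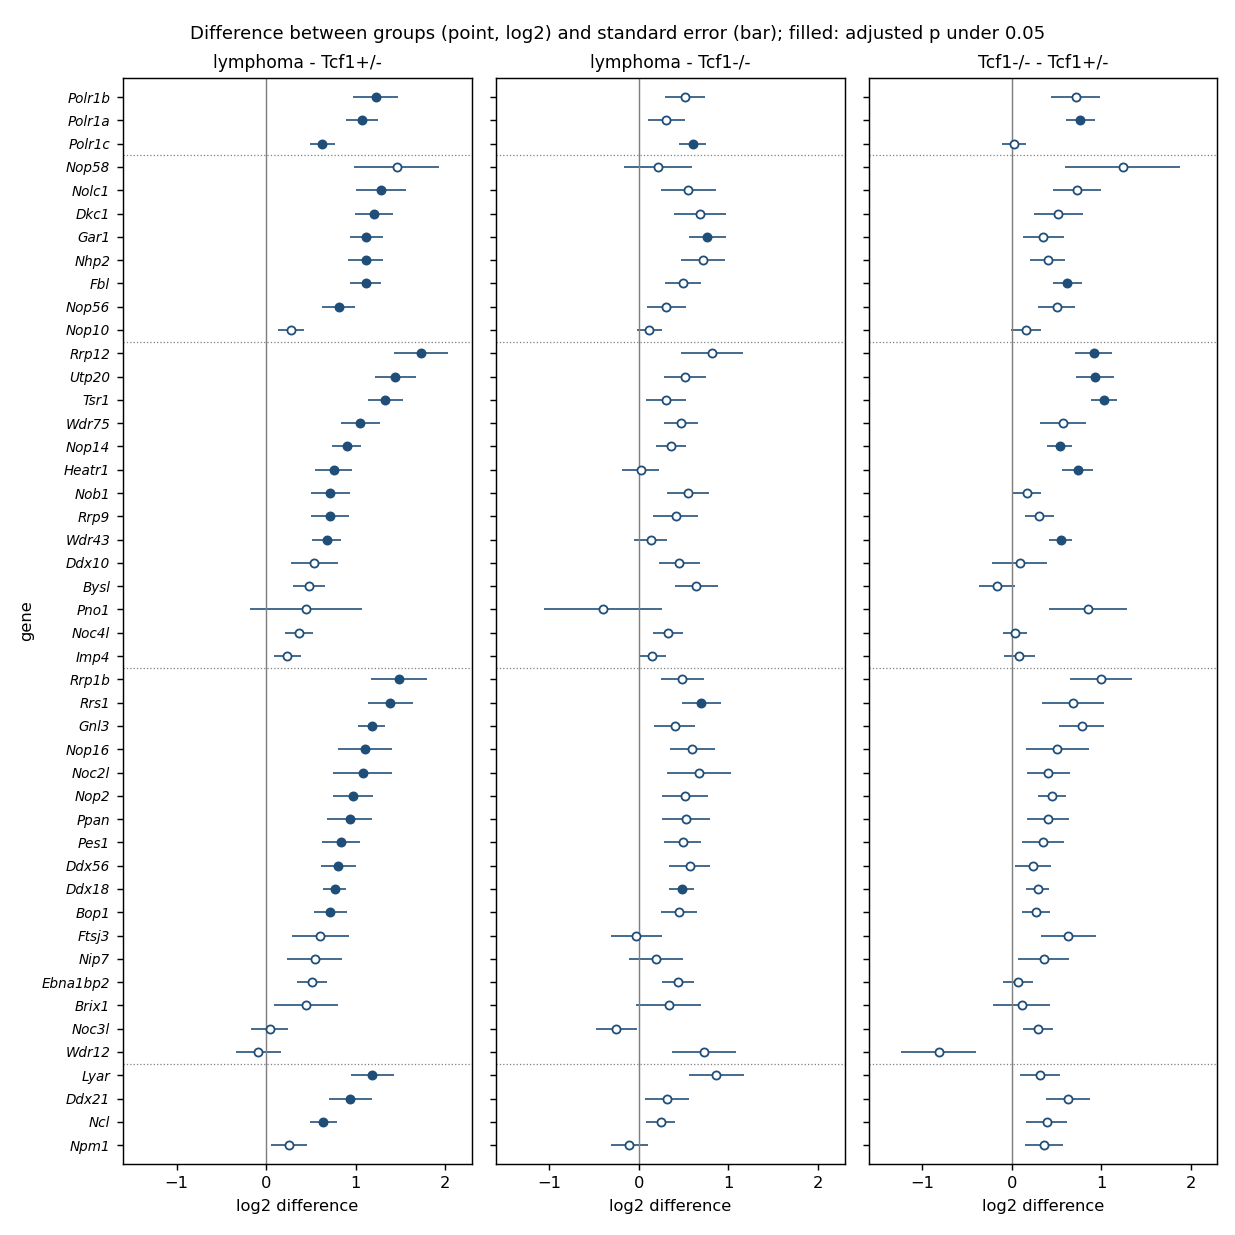
Difference in log2 signal between groups (horizontal axes) for each of the 46 measured members, grouped by role and sorted by the difference between lymphomas and controls, with standard errors as bars and filled points for an adjusted p under 0.05. Filled points number 32 for lymphomas against controls, 4 for lymphomas against Tcf1-/- thymi and 8 for Tcf1-/- thymi against controls, and all of them lie to the right of 0.

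All 3 measured subunits of RNA polymerase I, the enzyme that transcribes ribosomal RNA, were higher in lymphomas than in controls. Polr1b, the second largest subunit, gave 6.59, 7.29, 7.63, 7.82 and 7.92 in controls, 7.79, 8.32, 8.15 and 8.39 in Tcf1-/- thymi, and 8.01 to 9.13 with a median of 8.65 in lymphomas. Every lymphoma was above every control, and 6 of 8 were above every Tcf1-/- thymus. The difference to controls was 1.23 ± 0.25 (SE), or 2.34-fold (adjusted p = 0.00603), and the exact permutation test gave p = 0.000777, the smallest it can give with 8 and 5 mice. Without the 4 arrays that stood apart it was 0.92 and no longer called (adjusted p = 0.0533), nor was it with the mouse number as a block (0.97, adjusted p = 0.0566). Against Tcf1-/- thymi the difference was 0.51 ± 0.23 (adjusted p = 0.148).

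Polr1a, the largest subunit, was already higher in Tcf1-/- thymi. It measured 7.53, 7.38, 7.39, 7.70 and 7.60 in controls and 8.12, 8.62, 8.35 and 8.05 in Tcf1-/- thymi, and 8.13 to 9.08 with a median of 8.66 in lymphomas. All Tcf1-/- thymi and all lymphomas lay above all controls, and the lymphomas overlapped the Tcf1-/- thymi. The difference was 0.77 ± 0.16 between Tcf1-/- thymi and controls (adjusted p = 0.00894), and 1.08 ± 0.18 between lymphomas and controls (adjusted p = 0.00174). With the mean of all its probe sets in place of the brightest, the former was 0.23 and was not called.

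Polr1c, a subunit that RNA polymerase III also uses, differed in its pattern on the chosen probe set. It gave 9.85, 9.89, 9.54, 9.74 and 9.70 in controls, 9.68, 9.78, 9.73 and 9.90 in Tcf1-/- thymi, and 9.83 to 10.62 with a median of 10.43 in lymphomas. Controls and Tcf1-/- thymi lay in the same range, and 7 of 8 lymphomas lay above both, with lymphoma 3 inside that range. The lymphomas exceeded controls by 0.63 ± 0.14 (adjusted p = 0.0100) and Tcf1-/- thymi by 0.60 ± 0.15 (adjusted p = 0.0182), and the difference between Tcf1-/- thymi and controls was 0.03 ± 0.13 (adjusted p = 0.927). The call against Tcf1-/- thymi was lost when thymus 1, 2 or 3 of that group was left out, and the call against controls after quantile normalization (adjusted p = 0.0641). With the mean of its probe sets the difference to Tcf1-/- thymi was 0.38 and was not called (adjusted p = 0.142). On its other probe set the lymphomas exceeded controls by 0.43 and Tcf1-/- thymi by 0.16, and Tcf1-/- thymi exceeded controls by 0.27.

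Of the 8 snoRNP proteins, 6 were higher in lymphomas than in controls (Fbl, Nop56, Dkc1, Nhp2, Gar1 and Nolc1), with a class median of 1.12. Fibrillarin (Fbl), the methyltransferase of the C/D snoRNPs, measured 11.57, 11.47, 11.74, 11.77 and 11.75 in controls, 11.89, 12.40, 12.45 and 12.39 in Tcf1-/- thymi and 12.33 to 13.17 with a median of 12.92 in lymphomas. Neither Tcf1-/- group overlapped the controls, and 6 of 8 lymphomas lay above all Tcf1-/- thymi. Lymphomas exceeded controls 2.16-fold, by 1.11 ± 0.17 on the log2 scale (adjusted p = 0.00113). Tcf1-/- thymi exceeded controls by 0.62 ± 0.16 (adjusted p = 0.0254), a call that was lost without Tcf1-/- thymus 2, 3 or 4, and the lymphomas exceeded Tcf1-/- thymi by 0.49 ± 0.20 (adjusted p = 0.119).

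Gar1 belongs to the H/ACA snoRNPs, which convert uridines to pseudouridines. It gave 9.64, 9.52, 10.20, 10.10 and 10.04 in controls, 9.67, 10.36, 10.44 and 10.56 in Tcf1-/- thymi, and 10.68 to 11.62 with a median of 10.99 in lymphomas. All lymphomas lay above all thymi of both other groups, which overlapped each other. The difference was 1.12 ± 0.18 to controls (adjusted p = 0.00148) and 0.77 ± 0.21 to Tcf1-/- thymi (adjusted p = 0.0264), where the call was lost without Tcf1-/- thymus 1 or 2. Its partner Dkc1, the pseudouridine synthase itself, was higher in lymphomas than in controls by 1.20 ± 0.21 (adjusted p = 0.00247). Nop10, the smallest protein of the same complex, measured 12.87, 12.94, 12.46, 12.50 and 12.37 in controls, 12.55, 12.87, 12.93 and 12.81 in Tcf1-/- thymi and 12.54 to 13.15 with a median of 12.95 in lymphomas. The 3 groups overlapped, and the lymphomas differed from controls by 0.28 ± 0.14 (adjusted p = 0.252), or by 0.33 with the array set as a block, where it was called (adjusted p = 0.0320).

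Nop58, a core protein of the C/D snoRNPs, had the largest difference of the class and was not called. Controls 1 and 2 were at 7.13 and 7.17, and controls 3, 4 and 5 at 9.68, 9.36 and 9.58. Tcf1-/- thymi were at 8.58, 10.43, 9.89 and 10.39, and lymphomas ran from 8.86 to 10.61 with a median of 10.24. The low controls were both from the arrays that stood apart, and 7 of 8 lymphomas lay above the highest control. The difference of 1.46 ± 0.47 gave an adjusted p of 0.0573 in limma. Without the 4 arrays that stood apart it was 0.75 and was called (adjusted p = 0.0412).

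Of 14 factors of the small subunit processome and small subunit maturation, 9 were higher in lymphomas than in controls, with a class median of 0.72, and 6 of them were also higher in Tcf1-/- thymi than in controls. Rrp12, a factor for export and maturation of the subunits, had the largest difference of all members. Its signals were 6.36, 6.16, 6.23, 6.65 and 6.56 in controls, 6.90, 7.69, 7.61 and 7.04 in Tcf1-/- thymi, and 7.03 to 8.83 with a median of 8.38 in lymphomas. Controls lay below both other groups, which overlapped each other. The lymphomas were 3.33-fold higher than controls, a log2 difference of 1.74 ± 0.30 (adjusted p = 0.00244), and Tcf1-/- thymi exceeded controls by 0.92 ± 0.20 (adjusted p = 0.0130, and 0.103 when all 17 arrays were fitted together). The difference of 0.82 ± 0.35 between lymphomas and Tcf1-/- thymi was not called (adjusted p = 0.137).

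Utp20, a large scaffold protein of the processome, and Tsr1, a factor that occupies the maturing small subunit, are the members with the E-box shown above that differed most. Utp20 was 2.73-fold higher in lymphomas than in controls (log2 difference 1.45 ± 0.23, adjusted p = 0.00137) and Tsr1 was 2.52-fold higher (1.33 ± 0.20, adjusted p = 0.000786). Both were also higher in Tcf1-/- thymi than in controls, by 0.93 ± 0.21 and 1.03 ± 0.14 (adjusted p = 0.0144 and 0.00118). Neither differed between lymphomas and Tcf1-/- thymi beyond the threshold, where the differences were 0.52 ± 0.23 and 0.30 ± 0.22. Heatr1, another processome scaffold, had nearly equal means in the lymphomas and in the Tcf1-/- thymi (difference 0.02 ± 0.21) and exceeded controls in both, by 0.76 ± 0.21 and 0.74 ± 0.17 (adjusted p = 0.0277 and 0.0147).

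At the other end of the class were Imp4 and Pno1, whose promoters hold the same motif. Imp4, which helps pair the U3 snoRNA with the ribosomal RNA precursor, measured 8.55, 8.98, 9.12, 9.20 and 9.13 in controls, 8.98, 9.28, 8.95 and 9.12 in Tcf1-/- thymi and 8.90 to 9.54 with a median of 9.28 in lymphomas. The groups overlapped throughout, with a difference of 0.24 ± 0.15 between lymphomas and controls (adjusted p = 0.371), and its 2 other, dimmer probe sets gave 0.72 and 0.52. Pno1, a late factor of small subunit maturation, was at 8.02 and 8.32 in controls 1 and 2 and at 9.78, 9.62 and 9.77 in controls 3, 4 and 5. It was at 9.19, 10.27, 9.78 and 10.57 in Tcf1-/- thymi, at 7.40 and 7.39 in lymphomas 1 and 2, and at 9.31 to 10.66 in the other lymphomas. The 4 lowest values were thus those of the 4 arrays that stood apart, and within these arrays the lymphomas were lower than the controls by 0.77, whereas over all arrays they were higher by 0.45 ± 0.62 (adjusted p = 0.744).

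**Figure D3:**
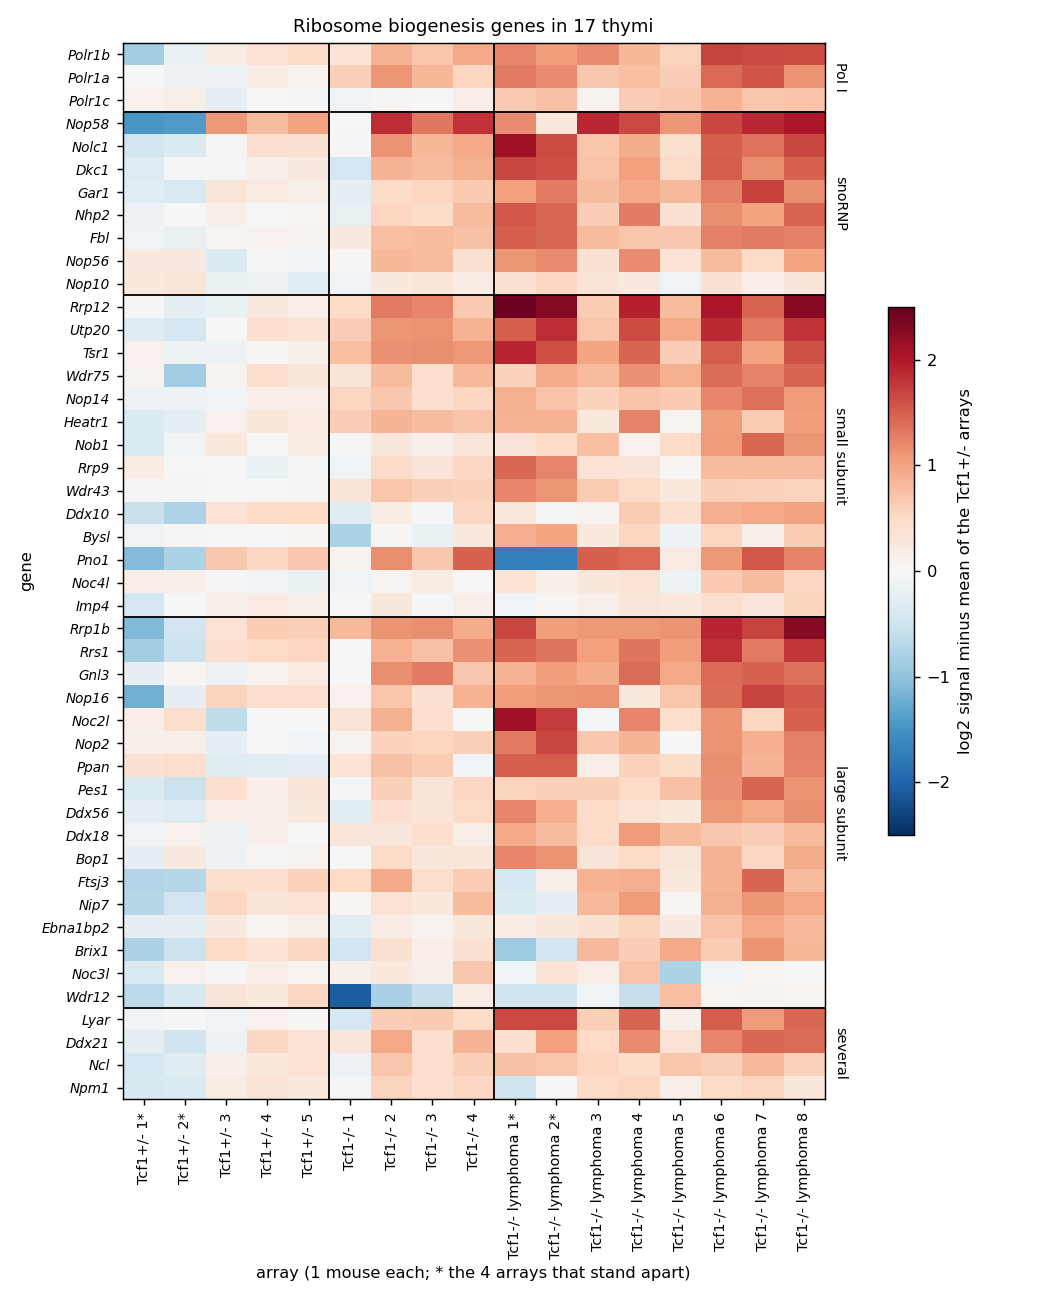
Log2 signal of each measured member (rows, grouped by role) in each of the 17 arrays (columns), as the difference from the mean of the 5 controls, with asterisks at the 4 arrays that stood apart. Most rows darken from controls to lymphomas, Tcf1-/- thymus 1 is paler than the other 3, and Pno1 in lymphomas 1 and 2, at log2 signals of 7.40 and 7.39, and Wdr12 in Tcf1-/- thymus 1, at 8.01, stand out as low.

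Among 17 measured factors of large subunit assembly, 11 were higher in lymphomas than in controls, with a class median of 0.81, and 0 were called between Tcf1-/- thymi and controls. Rrp1b, a nucleolar protein of early large subunit assembly, had the largest difference. It measured 6.59, 7.21, 8.05, 8.33 and 8.28 in controls, 8.49, 8.80, 8.85 and 8.61 in Tcf1-/- thymi, and 8.74 to 9.97 with a median of 9.09 in lymphomas. Controls lay below both other groups, and controls 1 and 2 were the lowest. The difference between lymphomas and controls was 1.49 ± 0.31 (adjusted p = 0.00693), or 1.20 with the mouse number as a block (adjusted p = 0.0549), and that between Tcf1-/- thymi and controls, 0.999 ± 0.34, was not called (adjusted p = 0.0842). Without controls 1 and 2 the latter was 0.47 and was called (adjusted p = 0.0455), as it was with the mean of its probe sets (0.56, adjusted p = 0.0320) and after quantile normalization (0.94, adjusted p = 0.0358). Rrs1, which brings the 5S particle into the large subunit precursor, exceeded controls by 1.39 ± 0.25 (adjusted p = 0.00308) and Tcf1-/- thymi by 0.70 ± 0.22 (adjusted p = 0.0484). Ddx18, an RNA helicase, exceeded them by 0.77 ± 0.13 (adjusted p = 0.00183) and 0.48 ± 0.14 (adjusted p = 0.0337). With the mean of probe sets, Rrs1 and Ddx18 both lost their call against Tcf1-/- thymi. In that comparison the other probe sets gave 0.43 for Rrs1, and 0.02 and -0.02 for Ddx18.

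Pes1, Bop1 and Wdr12 form the PeBoW complex, which large subunit assembly needs. Pes1 and Bop1 were higher in lymphomas than in controls by 0.84 and 0.72, and both were called. Wdr12 gave 9.42, 9.67, 10.40, 10.31 and 10.59 in controls, 8.01, 9.27, 9.49 and 10.27 in Tcf1-/- thymi, and 9.49 to 10.83 with a median of 10.06 in lymphomas. It was the only member with a lower mean in lymphomas than in controls, by a difference of -0.09 ± 0.25 (adjusted p = 0.892), and it was lowest in Tcf1-/- thymi, where the difference to controls was -0.82 ± 0.41 (adjusted p = 0.257). With the mean of its probe sets the latter was -0.76 and was called lower (adjusted p = 0.0260). Against Tcf1-/- thymi the lymphomas had positive differences for all 3, of 0.49 for Pes1, 0.45 for Bop1 and 0.73 ± 0.35 for Wdr12 (adjusted p = 0.192), and none was called. Noc3l, a large subunit export factor, was at 6.84, 7.30, 7.21, 7.36 and 7.25 in controls, at 7.32, 7.44, 7.32 and 7.86 in Tcf1-/- thymi, and at 6.41 to 7.90 with a median of 7.23 in lymphomas. The lymphomas spanned both other groups, and the difference to controls was 0.04 ± 0.21 (adjusted p = 0.947). Its other probe set, with a lower mean signal, gave a difference of 0.95. Its partner Noc2l was higher in lymphomas than in controls by 1.08 and was called, and its other probe set gave 0.39, so the values of both genes depend on the probe set.

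Of the nucleolar proteins with several roles, Ncl, Ddx21 and Lyar were higher in lymphomas than in controls and Npm1 was not called. Lyar, a nucleolar zinc finger protein of growing cells, gave 9.70, 9.79, 9.67, 9.87 and 9.80 in controls, 9.32, 10.37, 10.43 and 10.23 in Tcf1-/- thymi, and 9.90 to 11.41 with a median of 11.21 in lymphomas. Controls varied little, all lymphomas lay above them, and 6 of 8 lymphomas lay above all Tcf1-/- thymi. The difference was 1.19 ± 0.24 to controls (adjusted p = 0.00590, or 0.0571 on the other 13 arrays) and 0.87 ± 0.31 to Tcf1-/- thymi (adjusted p = 0.0767), the largest of all members in the latter comparison.

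Nucleolin (Ncl), an abundant protein that binds the ribosomal RNA precursor, measured 12.43, 12.55, 12.99, 13.10 and 13.22 in controls, 12.72, 13.53, 13.30 and 13.46 in Tcf1-/- thymi and 13.32 to 13.66 with a median of 13.50 in lymphomas. On this probe set all lymphomas lay above all controls, and the lymphomas varied less than either other group, with an SD of 0.11 against 0.35 and 0.37. The other, dimmer probe sets of Ncl gave differences of 1.21, 0.29, -0.27 and 0.67 between lymphomas and controls. The difference to controls was 0.64 ± 0.15 (adjusted p = 0.0133). On the other 13 arrays it was 0.37 and was not called (adjusted p = 0.0716), and with the mouse number as a block it was 0.62 and was not called (adjusted p = 0.0632). Nucleophosmin (Npm1), a chaperone of the nucleolus, gave 12.73, 12.77, 13.31, 13.44 and 13.37 in controls, 13.08, 13.68, 13.54 and 13.64 in Tcf1-/- thymi, and 12.63 to 13.66 with a median of 13.51 in lymphomas. The groups overlapped, and the differences were 0.25 ± 0.20 between lymphomas and controls (adjusted p = 0.509) and -0.11 ± 0.21 between lymphomas and Tcf1-/- thymi (adjusted p = 0.777).

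Other genes of the pathway were also called higher in lymphomas. Of 96 further ribosome biogenesis genes that passed the filter, 34 were higher and 0 lower in lymphomas than in controls, with a median difference of 0.43, where 8.50% of all genes were higher. Between lymphomas and Tcf1-/- thymi 19 were higher and 0 lower, with a median of 0.40, where 6.34% of all genes were higher. Between Tcf1-/- thymi and controls 4 were higher (Mdn1, Dhx33, Mybbp1a and Nat10) and 2 lower (Ddx47 and Rrp36), with a median of 0.10, which is a smaller share than the 10.1% of all genes called higher. The differences between lymphomas and controls included 1.52 ± 0.30 for Cd3eap, a subunit associated with RNA polymerase I (adjusted p = 0.00543), and 1.43 ± 0.16 for Taf1d, a subunit of its promoter selectivity factor (adjusted p = 0.000112). Both were also higher in lymphomas than in Tcf1-/- thymi, by 1.28 ± 0.31 and 1.22 ± 0.21 (adjusted p = 0.0155 and 0.00221). Ubtf and Rrn3, which start transcription by RNA polymerase I, were not called, at 0.05 ± 0.36 and 0.43 ± 0.25 against controls. Of 18 cell cycle genes, 2 were higher in lymphomas than in controls (Mcm3 and Mcm6, helicase subunits of DNA replication) and 0 were lower, with a median difference of 0.09. Their median was -0.37 between Tcf1-/- thymi and controls, with 0 called. In the mean per mouse Tcf1-/- thymus 1 was at 9.46, while the other Tcf1-/- thymi, at 11.17 to 11.27, lay within the controls' 10.81 to 11.39.

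Myc, which many of these genes are known to respond to, was set beside the members in each mouse. It measured 8.45, 8.50, 9.61, 9.54 and 9.55 in controls, 9.28, 10.37, 10.18 and 10.49 in Tcf1-/- thymi, and 7.72 to 11.23 with a median of 10.48 in lymphomas. Controls 1 and 2 and lymphomas 1 and 2, whose arrays stood apart, had the lowest 4 values, and the groups overlapped. In limma no comparison was called, with differences of 0.87 ± 0.57 between lymphomas and controls (adjusted p = 0.396), 0.95 ± 0.34 between Tcf1-/- thymi and controls (adjusted p = 0.0959) and -0.08 ± 0.63 between lymphomas and Tcf1-/- thymi (adjusted p = 0.950). The difference between lymphomas and controls was -0.41 within the 4 arrays that stood apart and 1.08 within the others. On the other 13 arrays the lymphomas exceeded Tcf1-/- thymi by 0.56 in place of -0.08, and Tcf1-/- thymi exceeded controls by 0.51. The latter comparison was called after quantile normalization (0.86, adjusted p = 0.0455), without Tcf1-/- thymus 1, and with the mouse number as a block (1.06, adjusted p = 0.0469). Deviations of same-numbered mice in these groups correlated at only -0.29 to 0.12, and the labels do not say what a number stands for. Within the 4 arrays the lymphomas had the lower Myc and the higher mean over the members.

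Across the 8 lymphomas, the mean over the members and Myc had a Pearson r of 0.25 and a Spearman rho of 0.57. Without lymphomas 1 and 2, which were also the farthest from the median of Myc, the values over 6 lymphomas were 0.54 and 0.83, and after quantile normalization over all 8 the r was -0.17. The same arrays give both quantities, so array quality is shared, and Myc had an r of 0.91 with the mean over all tested genes in the 8 lymphomas. Over the 6 lymphomas, Myc had an r of 0.54 and a rho of 0.77 with the mean over all tested genes. The r of 0.54 with the members' mean was thus no higher than that with the mean over all tested genes, and the rho was 0.83 against 0.77. Gene by gene, the median r with Myc was -0.02 over the 8 lymphomas and 0.46 over the 6 for members. For all genes it was 0.05 and 0.04. An r below 0 was found for 23 of 46 members over the 8 lymphomas and for 5 over the 6. Of single members, 14 of 46 (30.4%) had an r above 0.5 with Myc over the 8 lymphomas, compared with 29.9% of all genes, and 18 of 46 (39.1%) over the 6, compared with 22.0%. The mean of the cell cycle genes had an r of -0.05 with the mean over the members. Controls and Tcf1-/- thymi are too few for such values, and no r was taken across groups.

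**Figure D4:**
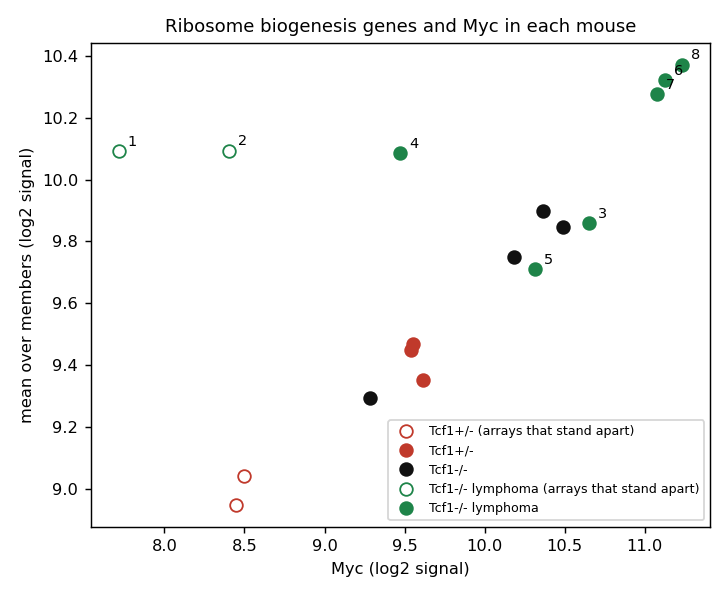
Mean log2 signal over the 46 measured members (vertical axis) against the log2 signal of Myc (horizontal axis), with 1 point per mouse, colours for the groups, open points for the 4 arrays that stood apart and numbers for the lymphomas. Lymphomas 1 and 2 have a Myc signal of 7.72 and 8.40 at a members' mean of 10.09, level with lymphoma 4, and lymphomas 6, 7 and 8 are highest on both axes.

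Of the 46 members, 31 had more than 1 probe set. The 47 probe sets of these genes that were not chosen gave a positive difference between lymphomas and controls in 42 cases, between lymphomas and Tcf1-/- thymi in 36 and between Tcf1-/- thymi and controls in 35. Their median differences, 0.53, 0.20 and 0.28, were smaller than those of the chosen probe sets. With the mean of probe sets, Bop1, Heatr1 and Noc2l lost their call between lymphomas and controls. Ddx18, Polr1c and Rrs1 lost theirs between lymphomas and Tcf1-/- thymi, and Fbl, Heatr1 and Polr1a theirs between Tcf1-/- thymi and controls. In all, 14 members were called in no comparison.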

How the data were processed

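Thymus RNA of 17 mice was measured on Affymetrix arrays. The authors computed the deposited log2 signals by RMA; its version is not given in the sources used here. Of 45101 probe sets, 64 are controls, 34945 carry 1 symbol, 932 several and 9160 none, in GEO's platform annotation. Each gene was represented by its single-symbol probe set with the highest mean. Groups follow the labels. Each pair of groups was fitted separately in limma 3.58.1 (R 4.3.3) with empirical Bayes moderation and Benjamini-Hochberg adjustment over 13759 genes, called at an adjusted p under 0.05; single genes were also tested by exact two-sided permutation of the difference of means. The fits were tested on simulated data. The deposited values still differed in spread between arrays (interquartile range 2.92 to 3.75), and no further normalization was applied. The number of arrays limits the precision.

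The members and gene lists were chosen with earlier results of these data known. Values by array, or the lowest, median and highest of the lymphomas, are given for the members with the highest and lowest difference of each role class in both lymphoma comparisons, Fbl, Ncl, Npm1 and Myc. Other members are named as examples, and those with the largest differences were chosen after their values were seen. Lymphomas and controls share the numbers 1 to 5. Deviations of same-numbered mice from their group means correlated at 0.25 to 0.62 in all 5 pairs, and the blocked count is printed. The own number was the closest match in 2 of the 5 pairs. In either group, mice 1 and 2 differ from mice 3 to 5 in array set, which alone can give such correlations. The r values therefore cannot tell pairing by number from array set. The labels do not say what a number stands for. Alternatives were a fit of all arrays, other filters, probe sets, normalizations and variance models, the Mann-Whitney U test that the study names, a covariate of Y-linked signal, the mouse number or array set as a block, leaving out mice or the 4 arrays, and a minimum difference.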

Additional observations from a re-analysis of the deposited data

Results flagged for a closer look

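In 54 sets of values by group, of 17 genes and of the mean over the members, 3 held a mouse far from the others of its group, where chance gives about 1 in 20. Polr1c in lymphoma 3 was at 9.83, below the other lymphomas, which lay between 10.36 and 10.62. Noc3l in control 1 was at 6.84, below the other controls at 7.21 to 7.36, and this array was 1 of the 4 that stood apart. Fbl in Tcf1-/- thymus 1 was at 11.89, below the other Tcf1-/- thymi at 12.39 to 12.45, and this thymus also had the lowest mean over the members of its group.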

How the results depend on the processing

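Between lymphomas and controls, the count of 32 members called higher moved to 20 with the replicate block, to 12 in the same mice without the block, to 20 without the 4 arrays that stood apart and to 17 with a minimum log2 difference of 1; it was 24 to 34 when single mice were left out and 24 by the Mann-Whitney U test and after quantile normalization. Within the 4 arrays 1 member, Pno1, was called lower, at -0.77. Between lymphomas and Tcf1-/- thymi, the count of 4 fell to 2 with the mean of probe sets, quantile normalization or the Mann-Whitney U test. With the mean of probe sets the 2 were Gar1 and Noc4l, so of the 4 only Gar1 remained. The count fell to 0 with the replicate block, in the same mice without it, with Y-linked signal as a covariate or with the minimum difference. It was 0 to 8 when single mice were left out. Between Tcf1-/- thymi and controls, the count of 8 moved to 5 in the fit of all 17 arrays, to 2 with the replicate block (Tsr1 and Utp20), to 0 by the Mann-Whitney U test, by which 0 of all genes were called higher, to 1 with the minimum difference, and to 3 to 15 when single mice were left out; with the mean of probe sets 1 member, Wdr12, was called lower. The share of all genes called is given above for the main fits and some of these settings only. In the other settings a change of the members' count cannot be told apart from a change of calls over all genes. Same-numbered mice of the last 2 comparisons did not deviate together (r of -0.19 to 0.09 and -0.29 to 0.12), so they were not treated as pairs. Among the genes given in every array, the block between lymphomas and controls ended the calls of Polr1b, Rrp1b and Ncl and changed no other call. The block and the subset it needs leave out lymphomas, so fewer samples enter. The r between Myc and the members was -0.17 after quantile normalization and 0.09 to 0.44 when single lymphomas were left out; the cause was not tested. The differences of the mean over members kept their direction, at 0.68 to 1.10 with the value within the 4 arrays, 0.27 to 0.47 and 0.27 to 0.58. Myc has 1 probe set, so the mean of probe sets changes nothing for it. The choice of the same-numbered mice without the block and of the comparison within the 4 arrays was made after the data had been seen.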
